A study of Mus musculus with 4 samples.

Results

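The 9 genes described here are forkhead transcription factor genes: *Foxa1*, *Foxa2*, *Foxa3*, *Foxb1*, *Foxc1*, *Foxc2*, *Foxd1*, *Foxf1* and *Foxf2*. They were taken by symbol from the 31055 genes of the matrices, which hold a further 38 genes whose symbol begins with Fox. Each of the 9 had UMIs in every library, from 2040 UMIs of *Foxa3* to 58971 UMIs of *Foxb1* over the 4 libraries. The set was put together as factors of endoderm and mesoderm. Of the 9 genes, 8 had their highest WT level in a class of endoderm, notochord or mesoderm. *Foxb1* was highest in neuromesodermal progenitor-like cells and was also high in neuroepithelium-like cells, in which *Foxa2* was detected too.

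The study profiled the caudal portion of embryonic day 8.5 mouse embryos by droplet-based single-cell RNA sequencing (10x Genomics, 3′ chemistry), to compare embryos with and without *Grhl3*, a transcription factor of the surface ectoderm needed for neural tube closure. Embryos came from intercrosses of *Grhl3*+/- mice. The WT group was 1 pool of 5 embryos and the *Grhl3*-null group, in which both copies of *Grhl3* are disrupted in every cell of the embryo, was 1 pool of 3 embryos. Each pool was run in 2 reactions, so the 2 libraries of a genotype share their embryos. Every p-value below therefore measures the spread between reactions and sequencing of 1 pool per genotype, and the spread between embryos was not measured.

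Of 24239 barcodes, 20198 cells passed the filters, with 4781 to 5459 cells and 209833527 to 226723903 UMIs per library. The targeted gene checked the labels, with 878 and 803 *Grhl3* UMIs in WT cells and 12 and 14 UMIs in *Grhl3*-null cells. No more than 7 barcodes were shared by any pair of libraries. Male cells, called from *Xist* and 4 Y-linked genes, made up 26.5% and 27.0% of the sex-called cells of the WT libraries and 55.6% and 57.5% of those of the *Grhl3*-null libraries, so the pools differed in the sex of their embryos, and since an embryo has 1 sex, the male and the female cells of a pool come from different embryos. Cells were grouped into 16 clusters without using the 9 genes, and clusters were named from marker genes that the study had itself chosen on these samples, giving 14 named classes, written with the suffix -like, and 1 unnamed cluster. The pre-somitic mesoderm-like class held 502 and 479 WT cells, of which 0% and 0.423% of those called were male, but 3 cells in each *Grhl3*-null library. It and the primordial germ cell-like class were too small for a test between genotypes, which left 13 classes. The level of a gene in a class is its UMIs summed over the cells of that class and library, per 1000000 UMIs of those cells (CPM).

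Forkhead factors bind DNA through a winged-helix domain of conserved sequence. The Foxa proteins can open closed chromatin and act in endoderm, notochord and floor plate, Foxb1 acts in the early neural tube, Foxc1 and Foxc2 in the segmentation of paraxial mesoderm into somites and in vessel formation, Foxd1 in kidney stroma and the optic chiasm, and Foxf1 and Foxf2 in the splanchnic mesoderm that surrounds the gut, downstream of Hedgehog signals from the endoderm. The coding sequence at the start of the forkhead domain is shown for the 9 genes to compare them as relatives. Libraries of 3′ chemistry read mostly the 3′ end of transcripts. This stretch therefore cannot show whether near-identical genes shared reads, which was not tested. Each line below gives the 60 bases of the coding strand that begin with the longest protein stretch identical in all 9, in GRCm38 with the GENCODE annotation, and capitals mark a base that differs from the commonest base of the 9 genes at that position.

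Foxa1: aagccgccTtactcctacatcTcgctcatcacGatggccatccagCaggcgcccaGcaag
Foxa2: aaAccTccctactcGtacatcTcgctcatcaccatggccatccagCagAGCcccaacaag
Foxa3: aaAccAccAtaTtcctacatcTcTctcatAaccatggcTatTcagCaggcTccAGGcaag
Foxb1: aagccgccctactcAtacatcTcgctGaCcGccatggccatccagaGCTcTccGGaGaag
Foxc1: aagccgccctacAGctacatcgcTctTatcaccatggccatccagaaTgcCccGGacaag
Foxc2: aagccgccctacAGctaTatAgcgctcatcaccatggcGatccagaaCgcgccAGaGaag
Foxd1: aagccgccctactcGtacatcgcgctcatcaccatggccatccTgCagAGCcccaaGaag
Foxf1: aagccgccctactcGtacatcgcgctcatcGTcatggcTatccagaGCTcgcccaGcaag
Foxf2: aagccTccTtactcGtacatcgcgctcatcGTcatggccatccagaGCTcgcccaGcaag

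The first 21 of these bases encode 7 residues that are the same in all 9 proteins. *Foxf1* and *Foxf2* differed at 3 of the 60 bases and at 0 of the 20 encoded residues, *Foxc1* and *Foxc2* at 9 bases and 1 residue, and *Foxa1* and *Foxa2* at 9 bases and 2 residues. The stretches lie on the minus strand at chr12:57542866-57542925 for *Foxa1*, chr2:148044360-148044419 for *Foxa2*, chr7:19014786-19014845 for *Foxa3* and chr9:69760151-69760210 for *Foxb1*, in exon 2 of 2 in each. They lie on the plus strand at chr13:31807439-31807498 for *Foxc1*, chr8:121116825-121116884 for *Foxc2* and chr13:98355007-98355066 for *Foxd1*, in the 1 exon of each, and at chr8:121084540-121084599 for *Foxf1* and chr13:31626377-31626436 for *Foxf2*, in exon 1 of 2. Over whole annotated transcripts, the longest run of identical bases shared by any of the 36 pairs was 53 bases, between *Foxc1* and *Foxc2*, followed by 41 bases between *Foxf1* and *Foxf2* and 38 bases between *Foxa1* and *Foxa2*.

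The genes of the Foxc and Foxf pairs are neighbours in crossed combinations. On chromosome 8, *Foxf1* and *Foxc2* are 28.0 kb apart, with *Foxl1* 9.04 kb beyond *Foxc2*, and on chromosome 13 *Foxf2* and *Foxc1* are 175 kb apart, with *Foxq1* 64.8 kb before *Foxf2*. Chromosomal neighbours and sequence relatives could thus be compared for their pattern over classes, as Pearson's r of log2 levels over the 16 clusters. Here and below these levels were means of the WT libraries alone, which all clusters share. Sequence relatives were alike, with r of 0.83 for *Foxc1* and *Foxc2*, 0.87 for *Foxf1* and *Foxf2*, 0.93 for *Foxa1* and *Foxa2* and 0.93 for *Foxa1* and *Foxa3*. Neighbours were less alike, with r of 0.24 for *Foxf1* and *Foxc2* and 0.29 for *Foxf2* and *Foxc1*. The lowest r of the 36 pairs was -0.67, for *Foxa2* and *Foxf1*.

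**Figure D1:**
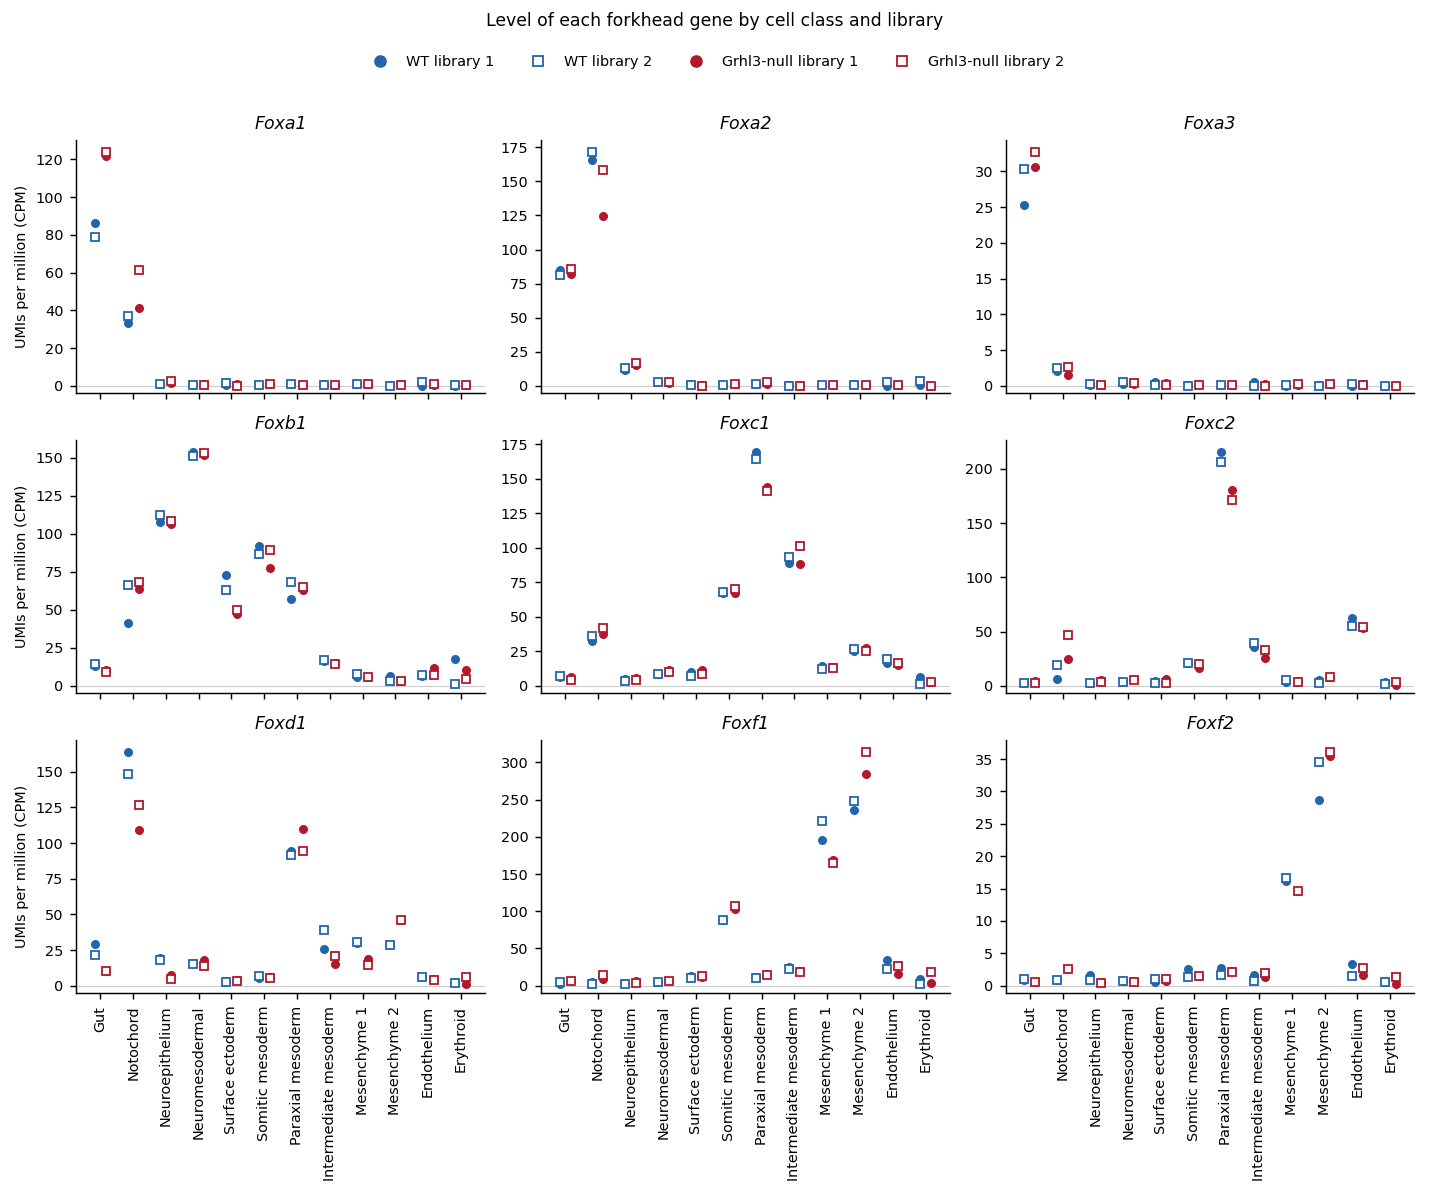
Levels of the 9 forkhead genes in CPM in 12 of the 13 tested classes, without the unnamed cluster, with a point for each of the 4 libraries. *Foxa3* stood at 25.3 to 32.7 CPM in gut-like cells and no higher than 2.64 CPM in notochord-like cells, *Foxf1* was highest in both mesenchyme-like classes, and *Foxb1* was spread over neural and mesodermal classes.

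*Foxa1*, a factor of gut tube endoderm, was found mainly in gut-like cells, led by *Nepn*, *Spink1*, *Ttr* and *Apoa1*. Its level there was 86.1 and 78.9 CPM in the WT libraries and 121.6 and 123.9 CPM in the *Grhl3*-null libraries, and gut-like cells held 83.6% and 88.1% of its UMIs on average in the 2 genotypes. It stood at 33.3 and 37.0 CPM in WT notochord-like cells and at no more than 1.86 CPM in any WT library of the other named classes. *Foxa3* was narrower still. Its level in gut-like cells was 25.3 and 30.3 CPM in WT and 30.7 and 32.7 CPM in *Grhl3*-null, and in notochord-like cells it was 2.11 and 2.45 CPM in WT.

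*Foxa2*, the Foxa gene required to form the notochord, was highest in notochord-like cells, a class led by *Shh* and *Noto*. It reached 165.7 and 171.6 CPM there in WT and 124.7 and 158.3 CPM in *Grhl3*-null, against 85.0 and 81.3 CPM in WT gut-like cells. In neuroepithelium-like cells *Foxa2* averaged 12.3 CPM in WT, and its level followed markers of the ventral neural tube. It was 25.2 ± 2.80 CPM (SD, n = 2 libraries) in the 444 WT neuroepithelium-like cells with a UMI of *Nkx6-1*, a ventral progenitor factor, and 0.98 CPM in the 552 without. In the 19 WT cells of this class with a UMI of *Shh*, made by the floor plate, it was 63.4 ± 46.0 CPM, and the spread between the 2 libraries was large.

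Within gut-like and within notochord-like cells, *Foxa1* and *Foxa2* were detected together at about the product of their separate rates. After each cell was thinned to 7500 UMIs, so that cells of different depth could be compared, *Foxa1* and *Foxa2* were both detected in 17.0% (95% exact binomial interval 12.7% to 21.9%, counting error only) of 277 gut-like cells of the first WT library, where the product of their rates was 17.2%. In notochord-like cells of that library the value was 21.9% of 64 cells, against a product of 20.4%. Over all cells of that library the 2 genes were found together 10.5 times as often as the product. In its neuroepithelium-like cells the ratio was 17.7, on 2 of 512 cells. By likeness over the 16 clusters, among 10079 genes that reached 10 CPM in at least 1 cluster, *Foxa3* was nearest to *Kif12* (r = 0.99), *Ambp* and *Spink1*, *Foxa1* to the unannotated *Gm26894* (r = 0.98), *Upk3a* and *Ang*, and *Foxa2* to *Upk3a* (r = 0.93), *Gm26894* and *Calca*.

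*Foxb1*, a factor of the early neural tube and later of the hypothalamus, had the broadest pattern. It was highest in neuromesodermal progenitor (NMP)-like cells, the bipotent cells of the tailbud, at 153.8 and 150.8 CPM in WT and 151.5 and 153.2 CPM in *Grhl3*-null. Neuroepithelium-like cells followed at 107.7 and 112.3 CPM in WT, then somitic mesoderm-like cells at 91.9 and 86.5 CPM, pre-somitic mesoderm-like cells at 84.3 and 79.6 CPM and surface ectoderm-like cells (surface ectoderm and neural plate border) at 73.1 and 63.0 CPM. The WT libraries of neighbouring classes in that order did not overlap as far as surface ectoderm-like cells, which overlapped paraxial mesoderm-like cells at 56.8 and 68.0 CPM. *Foxb1* was at 5.47 and 7.61 CPM in Mesenchyme 1-like cells. The genes nearest to it over clusters were *B230323A14Rik* (r = 0.95), *Zic2* (r = 0.86) and *Hes5* (r = 0.85), of which the last 2 are neural progenitor genes.

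*Foxc1* and *Foxc2*, which act together in the segmentation of paraxial mesoderm, were both highest in paraxial mesoderm-like cells, led by *Tcf15* and *Meox1*. *Foxc1* was at 169.6 and 164.5 CPM there in WT and 144.3 and 141.0 CPM in *Grhl3*-null, and *Foxc2* was at 215.8 and 206.4 CPM in WT and 180.5 and 171.2 CPM in *Grhl3*-null. Away from this class they parted. *Foxc1* followed in pre-somitic mesoderm-like cells at 113.2 and 114.6 CPM in WT, and in intermediate mesoderm-like cells at 89.2 and 93.2 CPM. Somitic mesoderm-like cells had *Foxc1* at 67.0 and 68.4 CPM in WT. At resolution 0.8, with lateral plate mesoderm-like cells separate, they had 92.2 and 91.4 CPM, within the intermediate mesoderm-like values given here. *Foxc2* followed in endothelium-like cells (endothelium and haematoendothelial progenitors), at 62.2 and 54.8 CPM in WT, where *Foxc1* was at 16.3 and 19.2 CPM.

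Both genes were higher in cells at the segment border. Over the pre-somitic, somitic and paraxial classes, the 563 WT cells with a UMI of *Mesp2* or *Ripply2*, genes switched on where the next somite border forms, had *Foxc1* at 179.2 CPM against 92.6 CPM in the 3397 cells without, and *Foxc2* at 193.6 CPM against 65.0 CPM. *Foxf1* went the other way over these pooled classes, at 18.7 ± 3.67 CPM with and 57.0 ± 0.91 CPM without. The classes differ in these genes, so the mix of classes and the marker cannot be told apart here. Within paraxial mesoderm-like cells, WT cells without either UMI had *Foxc1* at 138.3 and 143.4 CPM and *Foxc2* at 199.0 and 182.8 CPM. Their *Foxf1* was at 10.5 and 10.1 CPM. All WT cells of that class averaged 167.1 CPM for *Foxc1*, 211.1 CPM for *Foxc2* and 11.4 CPM for *Foxf1*. In the thinned cells *Foxc1* and *Foxc2* were both detected in 52.2% of 544 paraxial mesoderm-like cells of the first WT library, against a product of 51.9%, so within this class their detection was close to independent. Over all cells of that library the 2 were found together 2.55 times as often as the product. *Foxc1* was nearest over clusters to *Pcdh19* (r = 0.91) and *Foxc2* to *Ebf1* (r = 0.90).

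**Figure D2:**
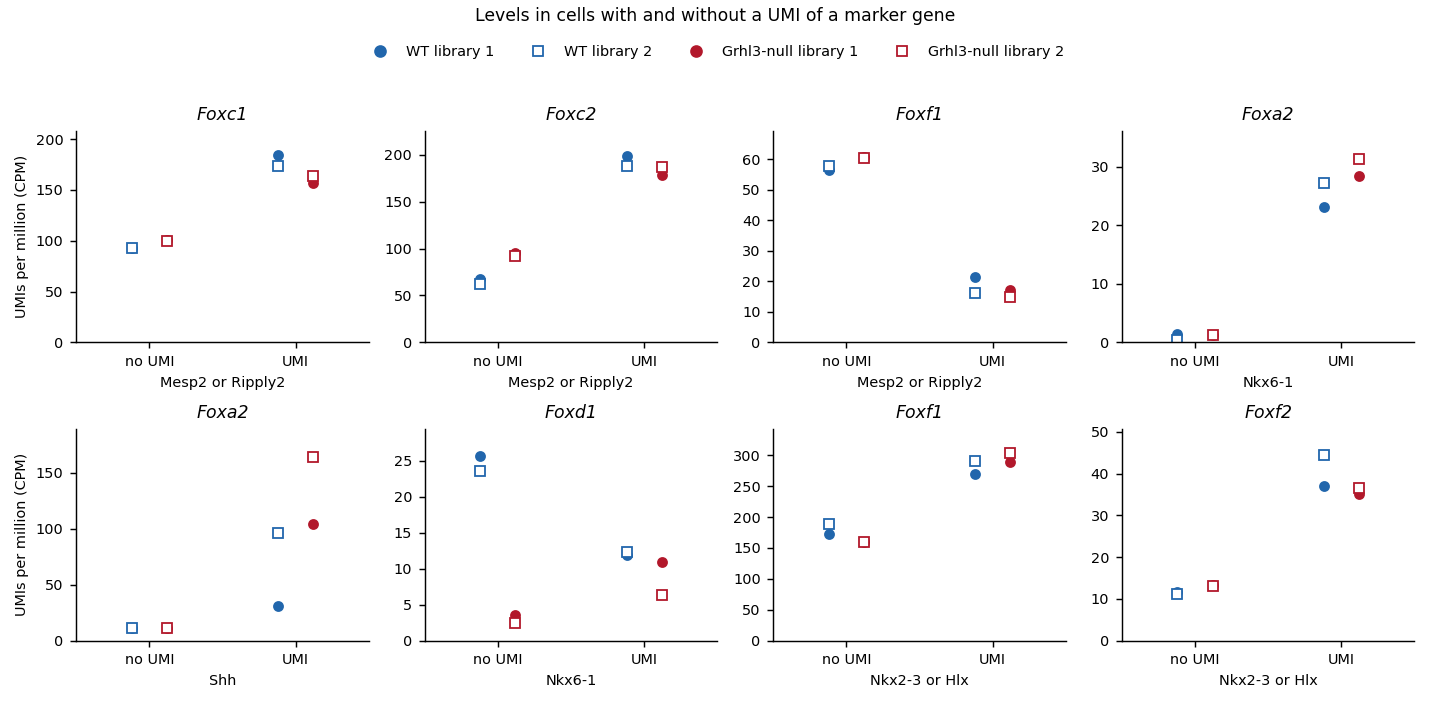
Levels of forkhead genes, in CPM, in cells with and without a UMI of a position marker, with a point for each library. *Foxa2* in neuroepithelium-like cells lay almost wholly in cells with *Nkx6-1*, *Foxc1* and *Foxc2* were higher in cells with *Mesp2* or *Ripply2*, and *Foxf2* was higher in cells with *Nkx2-3* or *Hlx*.

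*Foxd1* was highest in notochord-like cells, at 164.0 and 148.6 CPM in WT and 109.5 and 126.7 CPM in *Grhl3*-null. Paraxial mesoderm-like cells came next, at 94.6 and 91.7 CPM in WT, and because that class was larger it held 41.0% of the WT UMIs of *Foxd1* on average, against 7.30% in notochord-like cells. A group of classes followed whose WT library ranges overlapped or lay close: intermediate mesoderm-like cells at 26.1 and 39.1 CPM, Mesenchyme 1-like cells at 30.1 and 30.6 CPM, Mesenchyme 2-like cells at 28.7 and 28.4 CPM, gut-like cells at 29.1 and 21.4 CPM and neuroepithelium-like cells at 19.1 and 18.4 CPM. Somitic mesoderm-like cells were low, at 5.47 and 6.63 CPM. The gene nearest to *Foxd1* over clusters was another forkhead gene, *Foxp2* (r = 0.86).

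*Foxf1* and *Foxf2*, factors of splanchnic mesoderm, were both highest in Mesenchyme 2-like cells, led by *Col3a1*, *Nkx2-3* and *Hlx*, and next in Mesenchyme 1-like cells, led by *Prrx1*, *Hand2* and *Pitx1*. *Foxf1* was at 235.6 and 248.7 CPM in Mesenchyme 2-like and 195.4 and 221.8 CPM in Mesenchyme 1-like cells of WT. *Foxf2* was at 28.7 and 34.6 CPM in Mesenchyme 2-like and 16.1 and 16.7 CPM in Mesenchyme 1-like cells of WT. The classes differed in where *Foxf2* lay: over the Mesenchyme 1-like, Mesenchyme 2-like and unnamed clusters, the 663 WT cells with a UMI of *Nkx2-3* or *Hlx*, markers of the mesoderm of the gut wall, had *Foxf2* at 40.7 CPM and the 1521 cells without had 11.4 CPM, while *Foxf1* was at 280.6 and 181.1 CPM. *Foxf1* was therefore also present outside those cells. *Foxf1* was nearest over clusters to *Hand2* (r = 0.95), a lateral plate factor, and *Foxf2* to *Gm47071* (r = 0.97) and *Pitx1* (r = 0.92).

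*Foxf1* in the somitic mesoderm-like class depended on how finely cells were grouped. It stood at 88.1 and 87.9 CPM there in WT, but when clusters were cut more finely (resolution 0.8 in place of 0.4) a lateral plate mesoderm-like cluster of 1108 cells separated with *Foxf1* at 205.5 and 223.9 CPM in WT, and the remaining somitic mesoderm-like cells had 20.9 and 21.5 CPM. *Foxc2* and *Foxf1*, the neighbours on chromosome 8, were both detected in 1.12% of the 980 somitic mesoderm-like cells of the first WT library after thinning, 0.33 times the product of their rates. In Mesenchyme 2-like cells *Foxf1* and *Foxf2* were both detected in 12.9% of 428 cells of that library, against a product of 12.0%. In each main class the related pairs were found together at close to the product of their rates in that library.

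**Figure D3:**
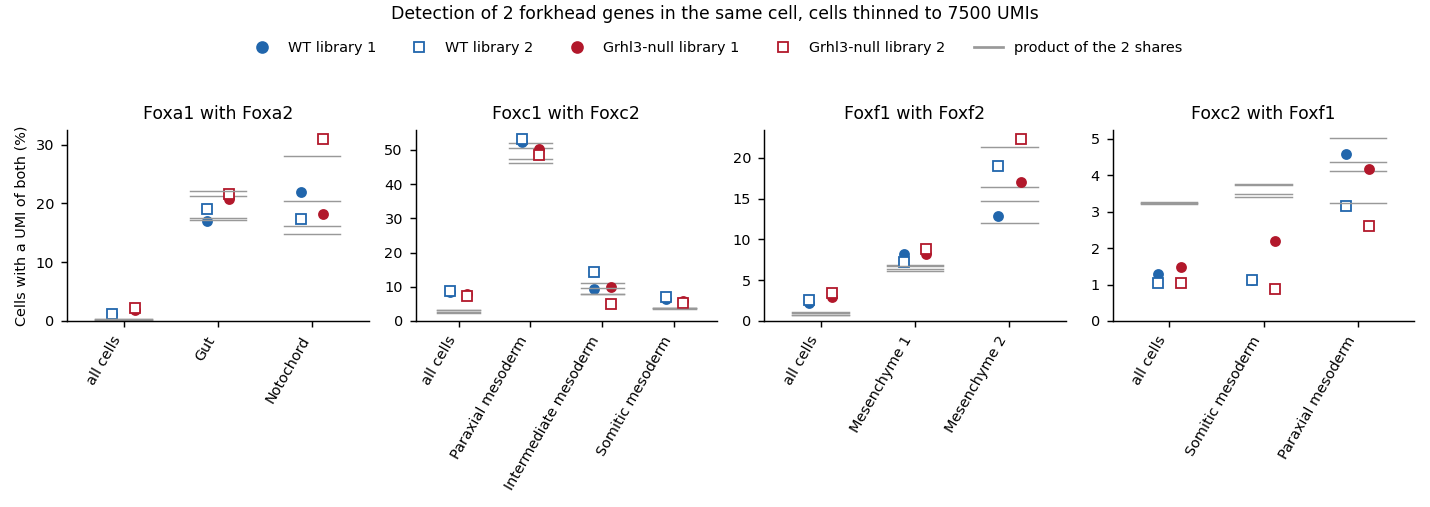
Share of cells with both genes of a pair detected, in percent, by class after each cell was thinned to 7500 UMIs, with a point for each library and a grey line for the product of the 2 separate rates in each library. Related pairs lay near their products within their main classes, as at 52.2% and 53.2% for *Foxc1* and *Foxc2* in WT paraxial mesoderm-like cells.

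Between genotypes, whole libraries were compared first. In whole libraries fewer cells of a type and less RNA of the gene per cell cannot be told apart. With edgeR's quasi-likelihood test and Benjamini-Hochberg adjustment over all 17168 genes tested, 5 of the 9 genes passed an adjusted p of 0.05, where 35.5% of all genes did, 3 of them higher (17.1% of all genes) and 2 lower (18.5%) in *Grhl3*-null. The median log2 fold change (*Grhl3*-null over WT) was 0.10 over the 9 genes and 0.00 over all genes. *Foxa1* rose, from 6.39 and 5.70 CPM in WT to 10.8 and 11.8 CPM (log2 fold change 0.87, SE 0.06, adjusted p = 7.48e-05, edgeR). *Foxa3* rose from 1.79 and 1.98 CPM to 2.58 and 2.92 CPM (0.51, SE 0.09, adjusted p = 0.00323, edgeR), and *Foxa2* from 9.23 and 9.56 CPM to 10.3 and 12.1 CPM (0.22, SE 0.07, adjusted p = 0.0365, edgeR). Gut-like cells made up 5.07% and 4.73% of the WT libraries and 8.28% and 8.03% of the *Grhl3*-null libraries, and the part of this share in the Foxa values was not tested.

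*Foxb1* fell in whole libraries from 71.5 and 71.9 CPM to 61.6 and 61.9 CPM (log2 fold change -0.25, SE 0.02, adjusted p = 0.000109, edgeR). *Foxc1* fell from 48.1 and 47.8 CPM to 41.9 and 41.0 CPM (-0.24, SE 0.02, adjusted p = 0.000257, edgeR). The libraries of the 2 genotypes did not overlap for any of these 5 genes. The 5 had been picked by their p-value in the same libraries, and the share of all genes without overlap was not counted. *Foxc2*, *Foxd1*, *Foxf1* and *Foxf2* did not pass, with log2 fold changes of 0.00, 0.10, 0.07 and 0.10.

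These whole-library values differed by sex. Among male cells the log2 fold change of *Foxd1* was 0.77 and among female cells -1.02, with levels of 21.0 and 20.01 CPM in male WT cells against 36.1 and 34.1 CPM in male *Grhl3*-null cells, and of 28.5 and 28.1 CPM against 15.3 and 12.98 CPM in female cells. *Foxc2* likewise had 0.66 among male and -1.09 among female cells, and *Foxf1* had -0.39 and 0.64. The difference of the genotype effect between the sexes, tested in 1 edgeR model, passed for 7 of the 9 genes, where 31.7% of all genes did, *Foxa3* and *Foxb1* being the 2 that did not pass. *Foxb1* had -0.46 among male and -0.35 among female cells. The male and the female cells are different embryos, so sex and embryo cannot be told apart. The model of the sexes, also used within classes below, had no term for the library. It treated the male and the female sum of 1 library as separate samples.

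Within classes, 90 of the 117 pairs of a gene and a tested class had enough counts for a test, and 30 of the 90 passed, where 12.7% of all genes passed over the same classes. Of the 90 tested pairs, 17 passed as higher in *Grhl3*-null, where 5.93% of all genes tested did, and 13 passed as lower, where 6.81% did. *Foxd1* and *Foxf1* each passed in 7 classes, *Foxc2* in 5, and *Foxa3* in 0 of 2. Of the 30 pairs, 12 still passed whichever of the 4 libraries was left out, 13 passed with DESeq2, and 7 passed in male and in female cells alone. In 22 pairs that could be tested in both sexes, the sign differed between the sexes in 6. The difference of the genotype effect between male and female cells, added after seeing the data, could be tested in 64 pairs over 10 classes and passed in 20 of them. The pairs that passed were 5 in paraxial mesoderm-like cells, where 18.9% of all genes passed, 4 in Mesenchyme 2-like cells (22.7%), 2 each in intermediate mesoderm-like (10.1%), Mesenchyme 1-like (11%), neuroepithelium-like (29.3%) and surface ectoderm-like cells (11.1%), 1 each in gut-like (6.97%), NMP-like (10%) and somitic mesoderm-like cells (6.61%), and 0 in endothelium-like cells (0.714%).

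**Figure D4:**
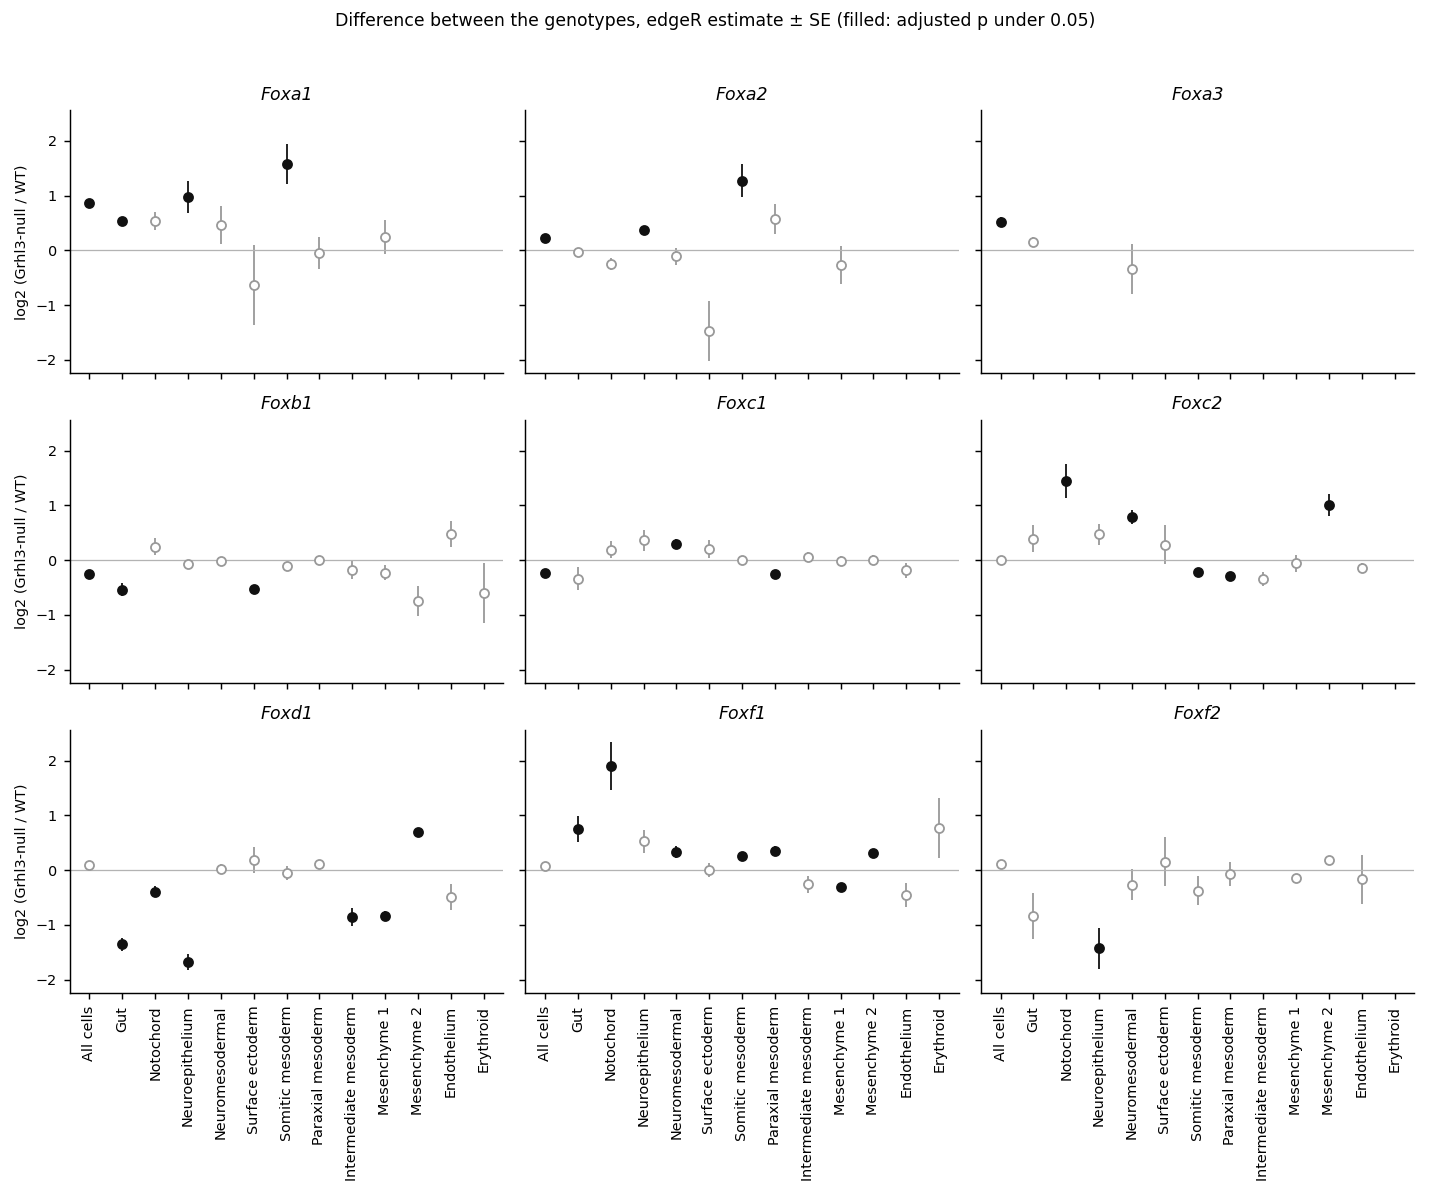
Log2 fold change, *Grhl3*-null over WT, of the 9 genes in all cells and in each named tested class, with its standard error and with filled points for an adjusted p under 0.05. *Foxd1* was lower in *Grhl3*-null in gut-like, Mesenchyme 1-like, intermediate mesoderm-like, neuroepithelium-like and notochord-like cells and higher in Mesenchyme 2-like cells.

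In gut-like cells 4 of 9 genes passed, against 19.5% of all genes. *Foxd1* fell to 10.3 and 10.0 CPM from 29.1 and 21.4 CPM in WT (log2 fold change -1.36, SE 0.12, adjusted p = 9.88e-08, edgeR). It was lower in both sexes, at 8.44 and 9.49 CPM against 16.0 and 10.9 CPM in male cells and at 12.1 and 12.2 CPM against 37.2 and 27.7 CPM in female cells. *Foxa1* rose by 0.53 (SE 0.05, adjusted p = 6.49e-07, edgeR), with levels given above that did not overlap. This rise lay in male cells, at 79.0 and 88.6 CPM in WT and 148.4 and 159.0 CPM in *Grhl3*-null, while female cells overlapped, at 92.0 and 75.5 CPM and 89.6 and 83.3 CPM, and the difference between the sexes was 0.77 (SE 0.13, adjusted p = 0.000646, edgeR), where 6.97% of all genes differed.

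*Foxb1* in gut-like cells fell from 13.3 and 14.5 CPM to 10.6 and 9.05 CPM (log2 fold change -0.53, adjusted p = 0.0032, edgeR). It did not pass with DESeq2 (adjusted p = 0.072, DESeq2) or in female cells (-0.29, adjusted p = 0.511, edgeR). *Foxf1*, at 2.35 and 5.18 CPM in WT and 6.86 and 5.84 CPM in *Grhl3*-null, had 0.74 (adjusted p = 0.0323, edgeR) on few UMIs, 34 in the first WT library. That call was lost in 2 of the 4 fits that left out a library and with DESeq2. *Foxa2* and *Foxa3* did not pass in gut-like cells, with -0.02 (SE 0.05) and 0.16 (SE 0.08). Of 14 tested endoderm genes chosen as partners of the Foxa factors, 6 were higher and 4 lower, with a median log2 fold change of 0.17 against 0.00 over all genes. *Hnf4a*, a hepatic and intestinal nuclear receptor, rose from 2.14 and 2.01 CPM to 6.13 and 5.72 CPM. *Spink1*, a protease inhibitor of the gut, rose from 240.5 and 316.4 CPM to 596.9 and 548.4 CPM, whereas *Isl1* fell from 43.5 and 46.0 CPM to 31.9 and 29.9 CPM and *Sox17* from 85.8 and 89.8 CPM to 70.3 and 74.5 CPM.

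In notochord-like cells, of which there were 44 to 75 per library, 3 of 7 genes passed, against 3.53% of all genes. *Foxd1* fell by 0.40 on the log2 scale (SE 0.10, adjusted p = 0.0264, edgeR), from 164.0 and 148.6 CPM to 109.5 and 126.7 CPM, which did not overlap. *Foxc2*, at 5.90 and 18.96 CPM in WT and 24.3 and 47.1 CPM in *Grhl3*-null, had 1.44 (SE 0.31, adjusted p = 0.008, edgeR), and *Foxf1*, at 4.64 and 1.83 CPM in WT and 8.62 and 14.1 CPM, had 1.90 (SE 0.44, adjusted p = 0.0133, edgeR). *Foxc2* and *Foxf1* mark other mesoderm classes and rested on 14 to 107 and 6 to 32 UMIs per library here. Each of the 3 calls was lost when at least 1 library was left out. With DESeq2 *Foxd1* and *Foxc2* did not pass (adjusted p = 0.404 and 0.939, DESeq2), and *Foxf1* was given no adjusted p. *Foxa2* did not pass, with -0.25 (SE 0.10, adjusted p = 0.205, edgeR). Of 10 tested notochord and floor plate partners, 1 passed: *Noto*, a notochord homeobox gene, fell from 131.1 and 136.7 CPM to 90.2 and 105.6 CPM, beside a median of -0.01 over the list and 0.01 over all genes.

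In neuroepithelium-like cells 4 of 8 genes passed, against 22.9% of all genes. *Foxd1* fell from 19.1 and 18.4 CPM to 7.42 and 4.47 CPM (log2 fold change -1.68, SE 0.14, adjusted p = 7.31e-07, edgeR). Among the neural partners, *T*, a mesoderm and tailbud factor, fell in the same class from 44.9 and 46.8 CPM to 9.64 and 14.9 CPM and *Nkx1-2* from 88.4 and 89.8 CPM to 51.1 and 47.1 CPM, while *Pax6* rose from 54.4 and 62.9 CPM to 122.6 and 122.1 CPM. Among the 86 to 246 cells per library with no UMI of *T* or *Nkx1-2*, a subset chosen after seeing the data, *Foxd1* was at 3.52 and 7.30 CPM in WT and 5.86 and 2.63 CPM in *Grhl3*-null, with a log2 fold change of -0.35 (SE 0.44, adjusted p = 0.778, edgeR), where 2% of all genes passed. By sex, *Foxd1* fell in female cells of the class, from 21.2 and 21.6 CPM to 3.15 and 5.45 CPM (-2.35, adjusted p = 5.14e-07, edgeR), and did not pass in male cells, at 8.84 and 8.19 CPM in WT and 6.81 and 3.62 CPM in *Grhl3*-null (-0.65, adjusted p = 0.164, edgeR). At resolution 0.8 it had -0.42 (adjusted p = 0.296, edgeR).

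*Foxa2* in neuroepithelium-like cells rose from 11.8 and 12.9 CPM to 15.3 and 17.0 CPM (log2 fold change 0.36, SE 0.09, adjusted p = 0.00654, edgeR). The rise did not pass with DESeq2 (adjusted p = 0.0948, DESeq2), and neither sex alone showed it. Male cells were at 20.7 and 21.2 CPM in WT and 17.8 and 21.0 CPM in *Grhl3*-null, with a log2 fold change of -0.06, and female cells at 9.34 and 11.8 CPM and 4.99 and 8.30 CPM, with -0.71. At resolution 0.8 the value was -0.17 (adjusted p = 0.335, edgeR). Male cells, in which *Foxa2* was higher, made up 12.4% and 15.9% of sex-called neuroepithelium-like cells in WT and 82.8% and 84.5% in *Grhl3*-null. *Foxa1* (log2 fold change 0.97) and *Foxf2* (-1.43) also passed, at no more than 2.57 CPM in any library. Neither passed with DESeq2 (adjusted p = 0.191 and 0.121, DESeq2). Of 11 neural partners of *Foxb1*, 6 were higher and 3 lower in this class, with a median of 0.18 against 0.00 over all genes, and *Foxb1* itself had -0.06 (SE 0.04).

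In NMP-like cells *Foxb1* had a log2 fold change of -0.01 (SE 0.03, adjusted p = 0.802, edgeR). Here 3 of 9 genes passed, against 19.7% of all genes, and all 3 were genes with low levels in the class. *Foxc2* rose from 3.04 and 3.61 CPM to 6.13 and 5.41 CPM (0.79, SE 0.13, adjusted p = 0.00113, edgeR). *Foxc1* went from 8.39 and 8.77 CPM to 11.4 and 9.85 CPM (0.30, adjusted p = 0.0335, edgeR), and *Foxf1* from 4.89 and 5.48 CPM to 6.29 and 6.95 CPM (0.33, adjusted p = 0.0433, edgeR), and these 2 calls were kept in 1 of the 4 fits that left out a library. With DESeq2 *Foxc1* and *Foxf1* did not pass (adjusted p = 0.254 and 0.31, DESeq2). *Foxc1* had -0.41 (adjusted p = 0.288, edgeR) in male and 0.24 (adjusted p = 0.268, edgeR) in female NMP-like cells, and *Foxc2* passed in neither sex, with 0.31 and 0.08. Of 11 neural partners 3 were higher and 2 lower here, with a median of 0.07.

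*Foxb1* fell in surface ectoderm-like cells from 73.1 and 63.0 CPM to 47.5 and 49.9 CPM (log2 fold change -0.52, SE 0.07, adjusted p = 0.000163, edgeR). The study found *Grhl3* mainly in this class, and far less of it in NMPs and neuroepithelium. It was the 1 gene of 8 to pass there, against 13.2% of all genes. The fall was seen in both sexes, from 70.7 and 91.8 CPM to 55.7 and 54.4 CPM among male cells (-0.56) and from 72.7 and 51.5 CPM to 34.9 and 43.9 CPM among female cells (-0.72). This pair and *Foxd1* in gut-like cells were the 2 of 30 that kept their call in every fit that left out a library, with every other normalisation, filter and tool, in each sex and in each of 3 other clusterings. In the unnamed cluster, led by *Lefty2* and with a median of 16220 UMIs per cell, 2 of 6 genes passed against 3.78% of all genes, *Foxb1* with -0.97 and *Foxd1* with 0.80. Neither of these 2 passed with DESeq2 (adjusted p = 0.355 and 0.536, DESeq2).

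In paraxial mesoderm-like cells 3 of 8 genes passed, against 20.9% of all genes. *Foxc1* fell by 0.26 on the log2 scale (SE 0.04, adjusted p = 0.00015, edgeR) and *Foxc2* fell by 0.29 (SE 0.04, adjusted p = 0.000109, edgeR), each with library values, given above, that did not overlap. The direction turned with sex. In male cells *Foxc1* was at 223.9 and 220.1 CPM in WT and 145.0 and 146.6 CPM in *Grhl3*-null (-0.63), whereas in female cells it was at 172.3 and 159.6 CPM in WT and 197.2 and 202.3 CPM in *Grhl3*-null (0.28), and the difference between the sexes was -0.89 (SE 0.08, adjusted p = 9.21e-08, edgeR), where 18.9% of all genes differed. *Foxc2* had -0.32 in male and 0.20 in female cells, a difference of -0.50 (SE 0.09, adjusted p = 0.00031, edgeR). Male cells were 13.5% and 16.0% of the sex-called cells of this class in WT and 82.8% and 84.1% in *Grhl3*-null.

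**Figure D5:**
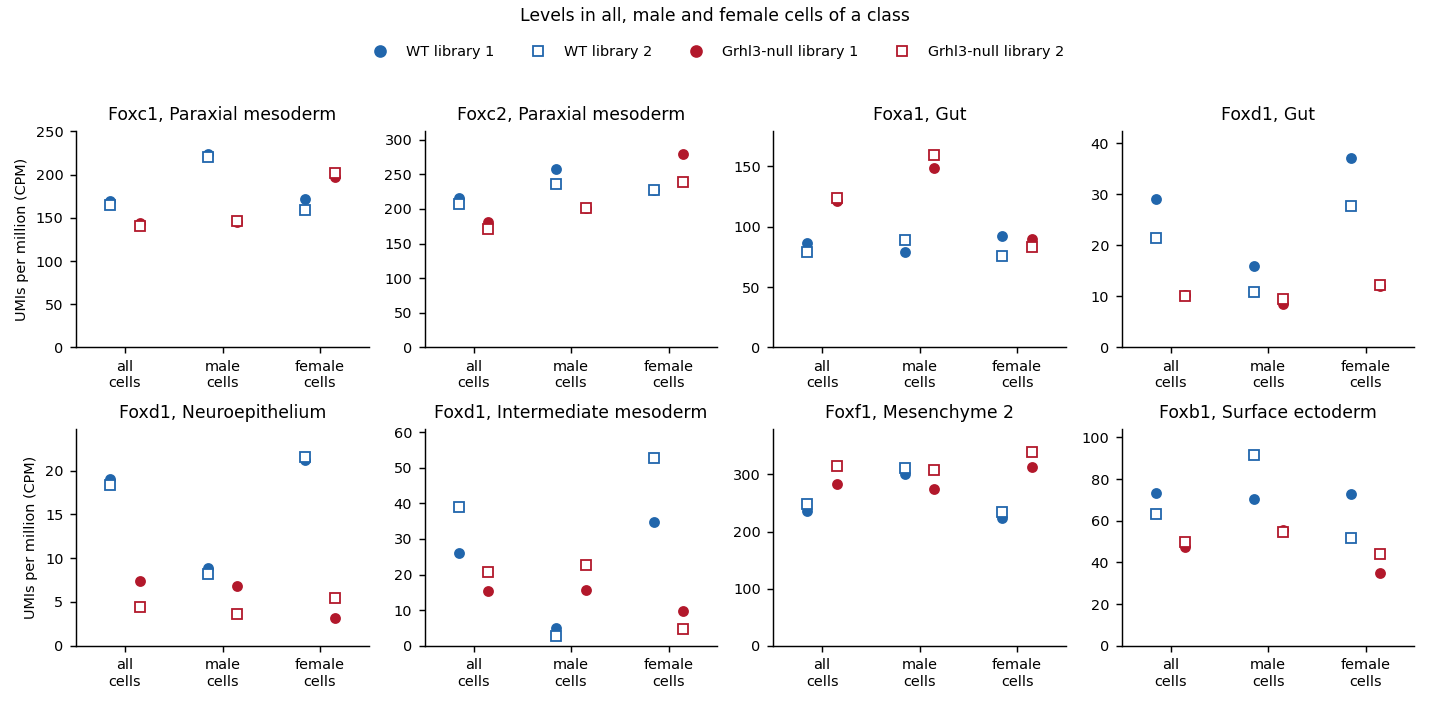
Levels of forkhead genes in all, male and female cells of selected classes, in CPM, with a point for each library. *Foxc1* in paraxial mesoderm-like cells was lower in *Grhl3*-null among male cells and higher among female cells, *Foxa1* in gut-like cells was higher among male cells alone, and *Foxd1* in gut-like cells was lower in both.

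*Mesp2* and *Ripply2*, named above, were also lower in this class. *Mesp2* fell there from 42.4 and 23.3 CPM to 7.64 and 9.91 CPM and *Ripply2* from 124.5 and 81.7 CPM to 41.3 and 36.8 CPM, and of 17 tested somite partners 9 were lower and 3 higher, with a median of -0.32 against 0.00 over all genes. *Pax1*, a sclerotome factor of formed somites, rose from 9.23 and 8.27 CPM to 23.3 and 22.5 CPM. Among the 294 to 429 cells per library with no UMI of *Mesp2* or *Ripply2*, a subset chosen after seeing the data, *Foxc1* was at 138.3 and 143.4 CPM in WT and 133.7 and 128.1 CPM in *Grhl3*-null (log2 fold change -0.12, SE 0.04, adjusted p = 0.11, edgeR), where 10.6% of all genes passed. *Foxc2* there was at 199.0 and 182.8 CPM in WT and 172.5 and 156.0 CPM in *Grhl3*-null (-0.23, SE 0.06, adjusted p = 0.0312, edgeR). *Foxf1*, low in this class, rose from 12.3 and 10.5 CPM to 15.3 and 14.5 CPM (0.35, SE 0.08, adjusted p = 0.0082, edgeR) over all paraxial mesoderm-like cells. It did not pass with DESeq2 (adjusted p = 0.0786, DESeq2). Its direction also turned with sex, at 1.55 (adjusted p = 0.000804, edgeR) in male and -0.82 (adjusted p = 0.126, edgeR) in female cells, and the call was lost without the second WT library (0.24, adjusted p = 0.0522, edgeR).

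In somitic mesoderm-like cells 4 of 8 genes passed, against 18.1% of all genes. *Foxf1* rose from 88.1 and 87.9 CPM to 103.4 and 107.1 CPM (log2 fold change 0.25, SE 0.04, adjusted p = 8.61e-05, edgeR), and was higher in male cells (0.39) and in female cells (0.30). With the finer clustering, in which lateral plate mesoderm-like cells were separate, it was at 20.9 and 21.5 CPM in WT and 17.0 and 21.7 CPM in *Grhl3*-null somitic mesoderm-like cells (-0.14), and with the 9 genes among the variable features it had -0.22. *Foxc2* had -0.21 (adjusted p = 0.041, edgeR), and *Foxa1* and *Foxa2* passed with 1.58 and 1.27 at no more than 1.47 CPM in any library. *Foxc2* did not pass with DESeq2 (adjusted p = 0.318, DESeq2), which gave *Foxa1* and *Foxa2* no adjusted p.

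*Foxd1* in intermediate mesoderm-like cells, the source of the kidney, was the 1 gene of 5 to pass, against 3.47% of all genes, with 26.1 and 39.1 CPM in WT and 15.3 and 20.8 CPM in *Grhl3*-null (log2 fold change -0.86, SE 0.17, adjusted p = 0.00154, edgeR). The call was not kept with DESeq2 (adjusted p = 0.104, DESeq2). The direction of *Foxd1* was opposite in the sexes. Male cells were at 4.99 and 2.81 CPM in WT and 15.7 and 22.7 CPM in *Grhl3*-null (2.22), and female cells at 34.9 and 52.9 CPM in WT and 9.62 and 4.63 CPM in *Grhl3*-null (-2.57), on 3 to 168 UMIs per library and sex. Of 7 intermediate mesoderm partners 3 were higher, *Pax2*, *Lhx1* and *Pax8*, and *Wt1* was lower, at 32.6 and 47.8 CPM in WT and 10.9 and 8.84 CPM in *Grhl3*-null.

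In endothelium-like cells 0 of 6 genes passed with edgeR, where 0.545% of all genes did. At an unadjusted p of 0.05 (edgeR) 0 of the 6 passed, where 1235 of all 11374 genes did. With DESeq2, which gave an adjusted p for 4 of the 6, 0 passed. There *Foxc2* was at 62.2 and 54.8 CPM in WT and 53.3 and 53.8 CPM in *Grhl3*-null. Of 14 vascular partners of the Foxc genes, 1 passed, *Runx1*, which fell from 16.8 and 17.1 CPM to 9.26 and 9.11 CPM. In erythroid-like cells 0 of 2 genes passed with edgeR, where 0.443% of all genes did. At an unadjusted p of 0.05 (edgeR) 0 of the 2 passed, where 739 of all 8585 genes did. DESeq2 gave the 2 genes no adjusted p.

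The mesenchyme-like classes differed in direction. In Mesenchyme 2-like cells 3 of 6 genes passed, against 20.2% of all genes, and all 3 were higher in *Grhl3*-null, where 10.3% of all genes were. *Foxf1* rose from 235.6 and 248.7 CPM to 284.0 and 314.2 CPM (log2 fold change 0.31, SE 0.05, adjusted p = 0.000251, edgeR). *Foxd1* rose from 28.7 and 28.4 CPM to 45.9 and 46.3 CPM (0.69, SE 0.06, adjusted p = 6.5e-07, edgeR) and was higher in both sexes, by 0.96 in male and 0.41 in female cells. With cells clustered on log-normalised values, however, the *Foxd1* value in Mesenchyme 2-like cells was -0.077 (adjusted p = 0.593, edgeR), and without the first *Grhl3*-null library it was 0.70 (adjusted p = 0.0923, edgeR). *Foxc2*, at 4.91 and 2.81 CPM in WT and 7.68 and 7.89 CPM in *Grhl3*-null, had 1.01 (SE 0.21, adjusted p = 0.00279, edgeR). The *Foxf1* and *Foxc2* calls were lost without either *Grhl3*-null library, at 0.24 and 0.37 for *Foxf1* and 1.00 and 1.03 for *Foxc2*.

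In Mesenchyme 1-like cells 2 of 8 genes passed, against 6.81% of all genes, and both were lower, where 2.98% of all genes were. *Foxf1* fell from 195.4 and 221.8 CPM to 169.5 and 165.4 CPM (log2 fold change -0.30, SE 0.05, adjusted p = 0.00139, edgeR). This call held in 1 of the 3 other clusterings, some of which gave the class name to a much smaller cluster, described below. It passed in male cells (-0.53, adjusted p = 1.18e-07, edgeR) and not in female cells (-0.08, adjusted p = 0.384, edgeR). *Foxd1* fell from 30.1 and 30.6 CPM to 18.7 and 14.7 CPM (-0.84, SE 0.09, adjusted p = 2.69e-05, edgeR), and was lower in male cells, at 23.3 and 17.6 CPM against 33.8 and 34.9 CPM, and in female cells, at 14.7 and 11.8 CPM against 26.9 and 25.1 CPM. In Mesenchyme 1-like cells of the other clusterings *Foxd1* had -0.21 (adjusted p = 0.013, edgeR) with log-normalised values, and did not pass at resolution 0.8 (-0.54, adjusted p = 0.582, edgeR) or with the 9 genes among the variable features (-0.66, adjusted p = 0.617, edgeR). In the latter 2 the name fell to a cluster led by *Tbx4*, of 495 and 429 cells, against 2541 cells in the main clustering. The clusters led by *Prrx1* and *Hand2* were unnamed there, so these values belong to a different set of cells. *Foxf2* did not pass in either class, with 0.18 (SE 0.08) in Mesenchyme 2-like and -0.15 (SE 0.07) in Mesenchyme 1-like cells.

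The difference of the genotype effect was tested for each gene between its 2 highest tested classes, in 1 edgeR model over all 13 classes. It was tested with the classes of resolution 0.4 alone, and passed for 1 of 9 genes. The model had no term for the library, so the class sums of 1 library were treated as separate samples. The adjusted p-values do not allow for this sharing. For *Foxf1* the effect in Mesenchyme 2-like minus that in Mesenchyme 1-like cells was 0.60 (SE 0.13, adjusted p = 0.000959, edgeR), where 5.62% of all genes passed for this pair of classes, and it was 0.32 (SE 0.16, adjusted p = 0.297, edgeR) for *Foxf2*. The others did not pass. Gut-like and notochord-like cells, where 1.21% of all genes passed, differed by 0.03 (SE 0.23) for *Foxa1* and 0.31 (SE 0.76) for *Foxa3*, gut-like minus notochord-like, and by -0.26 (SE 0.15) for *Foxa2*, notochord-like minus gut-like. NMP-like minus neuroepithelium-like cells gave 0.04 (SE 0.11) for *Foxb1*, with 7.54% of all genes passing. Paraxial minus intermediate mesoderm-like cells gave -0.31 (SE 0.11) for *Foxc1* (0.853%), paraxial mesoderm-like minus endothelium-like cells gave -0.16 (SE 0.15) for *Foxc2* (0.926%), and notochord-like minus paraxial mesoderm-like cells gave -0.53 (SE 0.17, adjusted p = 0.145, edgeR) for *Foxd1* (0.939%). The 2 sexes differed within each class for *Foxf1*. In Mesenchyme 2-like cells male cells were at 300.1 and 311.6 CPM in WT and 275.1 and 307.3 CPM in *Grhl3*-null and female cells at 223.7 and 234.9 CPM and 313.2 and 339.5 CPM, and in Mesenchyme 1-like cells male cells were at 222.8 and 245.8 CPM and 163.5 and 159.3 CPM and female cells at 171.7 and 196.0 CPM and 174.1 and 173.2 CPM.

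Of the partners of the Foxf genes in lateral plate and visceral mesoderm, some were higher and some lower in each mesenchyme-like class. *Ptch1* and *Gli1*, targets of Hedgehog signalling, were higher in *Grhl3*-null in Mesenchyme 2-like cells, *Ptch1* from 266.1 and 280.6 CPM to 399.3 and 443.1 CPM, and lower in Mesenchyme 1-like cells, from 173.3 and 179.7 CPM to 115.1 and 116.9 CPM. *Hlx* rose in the former, from 35.0 and 36.2 CPM to 48.5 and 50.4 CPM, and fell in the latter, from 9.52 and 11.5 CPM to 6.70 and 6.97 CPM. *Pitx1*, a factor of hindlimb mesoderm, fell in Mesenchyme 2-like cells from 197.7 and 198.0 CPM to 38.5 and 51.4 CPM, and *Barx1* from 6.13 and 6.50 CPM to 1.55 and 1.37 CPM. Over the list, 7 of 18 were higher and 6 lower in Mesenchyme 2-like cells (median 0.11), and 5 of 17 were higher and 6 lower in Mesenchyme 1-like cells (median 0.03), with medians of 0.01 and 0.00 over all genes.

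Among Mesenchyme 2-like cells with no UMI of *Pitx1*, a subset chosen after seeing the data that held 84 and 76 WT and 253 and 262 *Grhl3*-null cells, *Foxf1* was at 198.6 and 198.4 CPM in WT and 269.1 and 291.3 CPM in *Grhl3*-null (log2 fold change 0.52, SE 0.06, adjusted p = 0.00039, edgeR). *Foxd1* there was at 49.4 and 41.4 CPM in WT and 61.4 and 62.0 CPM in *Grhl3*-null (0.46, SE 0.10, adjusted p = 0.0435, edgeR), where 0.847% of all genes passed. *Foxc2* no longer passed (0.20, adjusted p = 0.874, edgeR). The genotype effect of *Foxd1* also differed between classes. A comparison of its effect in Mesenchyme 2-like cells with that in each of the 12 other tested classes, added after seeing the data, passed for 8 of them. The difference was 2.36 (SE 0.21) against neuroepithelium-like cells, where 3.7% of all genes passed, 2.05 (SE 0.21) against gut-like cells (5.21%), 1.56 (SE 0.26) against intermediate mesoderm-like cells (1.99%) and 1.52 (SE 0.17) against Mesenchyme 1-like cells (5.62%). It was 1.12 (SE 0.19) against notochord-like cells (2.57%), 0.75 (SE 0.23) against somitic mesoderm-like cells (6.43%), 0.67 (SE 0.17) against NMP-like cells (7.02%) and 0.59 (SE 0.15) against paraxial mesoderm-like cells (6.61%). Endothelium-like (3.01%), erythroid-like (0.873%) and surface ectoderm-like cells (8.53%) and the unnamed cluster (1.33%) did not pass, with differences of 1.18, 0.09, 0.51 and -0.07.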

How the data were processed

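The authors deposited a matrix of counts, unnormalised UMI counts per gene and barcode, for each of the 4 libraries, made per the labels with Cell Ranger on mm10. As in the study's methods, a cell was kept when it had 3000 genes or more and 7500 UMIs or more, with no more than 7% of UMIs mitochondrial. Libraries were merged, normalised with sctransform 0.4.2 and clustered with Seurat 5.3.0 (3000 variable features without the 9 genes, 30 components, 20 neighbours, resolution 0.4), and clusters were named from at least 3 of the study's markers among their leading genes. The doublet caller of scanpy 1.11.5 marked under 0.5% of cells and had therefore not worked. The 5% of cells with the highest scores were removed as an alternative.

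Within each class and library UMIs were added up, for classes with at least 20 cells in every library, and tested with edgeR 4.0.16 (quasi-likelihood, TMM, filterByExpr, Benjamini-Hochberg adjustment over all genes tested, threshold 0.05) after the test was checked on simulated data, with DESeq2 1.42.0 as an alternative. The check on simulated data changed 200 genes by 2 on the log2 scale, so it did not cover smaller changes. It recovered 199 of them in all cells, 196 in gut-like and 186 in notochord-like cells, with 12, 15 and 3 wrong calls. Libraries of a genotype differed by more than sampling (chi-square over its degrees of freedom 7.77 in WT and 13.6 in *Grhl3*-null) and were kept apart. Cells were called female at 3 or more *Xist* UMIs with at most 1 Y-linked UMI, and male at 2 or more Y-linked UMIs with at most 2 *Xist* UMIs. Sequences were read from GRCm38. The other alternatives were no scaling, another scaling, no filter on low counts, a 5% mitochondrial limit, each sex alone, 3 other clusterings and leaving out each library. The 9 genes, the lists of partner genes and the tests were chosen with earlier results of these data known. Genes named are the 9, at most 6 of a partner list, the 3 most alike over clusters, and other Fox genes with at least 10 CPM in a class. Intervals cover counting error only.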

Additional observations from a re-analysis of the deposited data

Results flagged for a closer look

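The values here are differences between groups in the genotype effect, each a difference of log2 fold changes (*Grhl3*-null over WT) that passed edgeR's test with Benjamini-Hochberg adjustment over all genes. The models had no term for the library, so sums from 1 library were treated as separate samples. The comparison of *Foxf1* between both mesenchyme-like classes gave 0.60 (SE 0.13). The *Foxf1* fall in Mesenchyme 1-like cells that enters it held in 1 of the 3 other clusterings. Some of these gave the class name to a much smaller cluster, so the cells compared were not the same. For *Foxd1*, the effect in Mesenchyme 2-like cells exceeded that in neuroepithelium-like cells by 2.36, gut-like cells by 2.05, intermediate mesoderm-like cells by 1.56, Mesenchyme 1-like cells by 1.52, notochord-like cells by 1.12, somitic mesoderm-like cells by 0.75, NMP-like cells by 0.67 and paraxial mesoderm-like cells by 0.59. These 8 differences share the *Foxd1* effect in Mesenchyme 2-like cells, 0.69, which was -0.077 when cells were clustered on log-normalised values. The *Foxd1* comparisons were added after seeing the data.

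The effect in male minus that in female cells, also added after seeing the data, passed in 20 of 64 pairs of gene and class (31.2%). Over whole libraries it was 0.55 for *Foxa1*, 0.33 for *Foxa2*, 0.89 for *Foxc1*, 1.75 for *Foxc2*, 1.79 for *Foxd1*, -1.03 for *Foxf1* and -0.78 for *Foxf2*. For *Foxc1* it was 2.91 in Mesenchyme 2-like, 1.43 in surface ectoderm-like, -0.38 in somitic mesoderm-like, -0.64 in intermediate mesoderm-like and -0.89 in paraxial mesoderm-like cells. In Mesenchyme 2-like cells the *Foxc1* level was 4.32 and 14.0 CPM in male WT and 32.4 and 32.6 CPM in male *Grhl3*-null cells, against 29.2 and 29.4 CPM and 17.8 and 10.7 CPM in female cells. For *Foxc2* it was 3.03 in surface ectoderm-like and -0.50 in paraxial mesoderm-like cells.

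For *Foxd1* the male minus female difference was 4.79 in intermediate mesoderm-like, 1.69 in neuroepithelium-like, 1.35 in paraxial mesoderm-like and 0.55 in Mesenchyme 2-like cells. In paraxial mesoderm-like cells *Foxd1* stood at 88.4 and 72.4 CPM in male WT and 137.6 and 131.9 CPM in male *Grhl3*-null cells, and at 101.0 and 108.1 CPM and 77.2 and 57.1 CPM in female cells. For *Foxf1* it was 2.39 in paraxial mesoderm-like, -0.45 in Mesenchyme 1-like and -0.61 in Mesenchyme 2-like cells, and for *Foxf2* -1.02 in both mesenchyme-like classes. For *Foxb1* it was -0.69 in neuroepithelium-like and -1.09 in paraxial mesoderm-like cells. It was 0.77 for *Foxa1* in gut-like cells and 2.63 for *Foxa2* in NMP-like cells. The pools differ in the embryos that supply each sex, so sex and embryo cannot be told apart.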

How the results depend on the processing

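The class with the highest WT level was the same for 9 of 9 genes under each alternative tried for levels. The count of genes passing in whole libraries, 5, was 8 in male cells and 8 in female cells alone and ranged from 4 to 6 when a library was left out. The count of pairs passing within classes, 30, was 13 with DESeq2 and ranged from 23 to 34 when a library was left out, with 23 of the 30 kept without WT replicate 1, 21 without WT replicate 2, 20 without *Grhl3*-null replicate 1 and 22 without *Grhl3*-null replicate 2. The count of genes whose effect differed between their 2 highest classes was 1, and 1 to 2 when a library was left out, with 2 without *Grhl3*-null replicate 2. The replicate numbers name reactions and do not pair the samples (r = 0.00822 between the genotypes' replicate differences over 15581 genes). With the replicate block 7 genes passed in whole libraries and 38 pairs within classes, with all 30 among them, and 1 gene in the comparison of classes. The share of WT paraxial mesoderm-like cells with both *Foxc1* and *Foxc2*, 52.7%, was 97.5% without thinning and 55.5% with the highest doublet scores removed.

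Directions turned as follows, and the cause was not tested. In male cells the log2 fold change over whole libraries was 0.00054 for *Foxc1*, -0.39 for *Foxf1* and -0.24 for *Foxf2*, and it was 2.22 for *Foxd1* in intermediate mesoderm-like, -0.073 for *Foxf1* in Mesenchyme 2-like, -0.059 for *Foxa2* in neuroepithelium-like and -0.41 for *Foxc1* in NMP-like cells. In female cells it was -1.09 for *Foxc2* and -1.02 for *Foxd1* over whole libraries, -0.71 for *Foxa2* in neuroepithelium-like cells, and 0.28, 0.20 and -0.82 for *Foxc1*, *Foxc2* and *Foxf1* in paraxial mesoderm-like cells. Over whole libraries *Foxc2* had -0.0028 without the filter on low counts, and ranged from -0.048 to 0.049 when a library was left out (-0.048 without WT replicate 2 and -0.020 without *Grhl3*-null replicate 1). With other clusterings, *Foxd1* in Mesenchyme 2-like cells had -0.077 (log-normalised values), *Foxa2* in neuroepithelium-like cells -0.17 (resolution 0.8), and *Foxf1* in somitic mesoderm-like cells -0.22 (the 9 genes among the variable features) and -0.14 (resolution 0.8). The difference between the 2 highest classes ranged from -0.19 to 0.34 for *Foxa1* (-0.12 without WT replicate 2) and from -0.0058 to 0.080 for *Foxb1* when a library was left out. Depth limits the genes of low level, such as *Foxf1* in notochord-like cells with 6 to 32 UMIs per library.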

Other observations

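Of the 38 other genes with a symbol that begins with Fox, 2 had no UMI in the cells kept and 15 reached 10 CPM in a class. In paraxial mesoderm-like cells 20 of these other genes were tested, of which 4 were higher and 1 lower in *Grhl3*-null. In Mesenchyme 2-like cells 19 were tested, of which 5 were higher and 1 lower. The shares of all genes that passed in these classes are given above. *Foxp1*, the forkhead gene of many tissues, fell in paraxial mesoderm-like cells from 204.8 and 201.7 CPM in WT to 165.7 and 166.2 CPM in *Grhl3*-null (log2 fold change -0.32, SE 0.03, adjusted p = 1.28e-05, edgeR). It rose in Mesenchyme 2-like cells from 114.3 and 107.2 CPM to 137.7 and 136.1 CPM (0.31, SE 0.05, adjusted p = 0.000229, edgeR). *Foxq1*, the neighbour of *Foxf2*, rose in Mesenchyme 2-like cells from 9.51 and 9.37 CPM to 14.4 and 18.2 CPM (0.79, SE 0.12, adjusted p = 0.000301, edgeR), and *Foxl1*, the neighbour of *Foxc2* and a gene of the lateral plate and visceral mesoderm list that stayed under 10 CPM in each class, rose there from 0.447 and 0.383 CPM to 1.32 and 1.51 CPM (1.75, SE 0.41, adjusted p = 0.00728, edgeR).

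The other two Fox genes named here, which were under that level and in no list, were chosen after their values were seen. *Foxd3*, a neural crest factor, rose in neuroepithelium-like cells from 3.45 and 5.08 CPM to 12.9 and 16.9 CPM (log2 fold change 1.78, SE 0.16, adjusted p = 1.2e-06, edgeR). *Foxe1* stood at 3.96 and 4.53 CPM in Mesenchyme 2-like cells of WT and had no UMI in those of either *Grhl3*-null library.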
